A study of Mus musculus with 32 samples.

Results

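The nuclear genes for respiratory complexes III and IV and for ATP synthase were followed in the retinas of mice flown on the International Space Station and of ground control mice. Members were the rows of the expression table whose symbol begins with Uqcr (complex III), with Cox followed by 4 to 8 or 10 to 19 (complex IV, cytochrome c oxidase) or with Atp5 (ATP synthase), with a mean of 1 FPKM or more (fragments per kilobase of transcript, scaled to the mapped fragments of the library). Of 51 such symbols, 49 passed and 2 did not (Cox7b2 and Cox8c, both testis isoforms), among 14306 genes that passed the same filter. There were 8 members of complex III, 24 of complex IV and 17 of ATP synthase. The symbols also took in genes that are not structural subunits. These were the 7 assembly factors Cox10, Cox11, Cox15, Cox16, Cox17, Cox18 and Cox19, the supercomplex factor Cox7a2l, and Cox4nb, Atp5s and Atp5sl.

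All mice were female C57 BL/6J animals, 16 weeks old at the start and 21 weeks old by the labels, housed in the same kind of animal enclosure module. Spaceflight mice spent 37 days in orbit and were euthanized and frozen there. Ground habitat control mice stayed on the ground in matching housing and were euthanized and frozen at the same time in the same way. In both groups the eyes were later taken from the thawed carcasses and frozen again. The retinas were micro-dissected from these frozen eyes. The labelled libraries analysed here were 9 spaceflight and 7 ground control retinas with ribosome-depleted total RNA sequenced, 1 library a mouse, and 8 retinas of each group with reduced representation bisulfite sequencing (RRBS), which reads cytosine methylation at a CpG-rich subset of the genome. Libraries are named by the mouse number of their column in the expression table, M21 to M30 for spaceflight and M31 to M36 with M40 for ground control. One of the labels of the M21 RNA library calls it a ground habitat control and the other calls it flight, and the titles of 6 ground control RNA libraries carry a mouse number that differs from the column, so results that turn on M21 are also given with it among the ground controls. The RNA libraries ran on 2 sequencer models, and which library ran on which is not given in the sources used here.

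Complex III passes electrons from ubiquinol to cytochrome c, complex IV passes them from cytochrome c to oxygen, and both move protons across the inner mitochondrial membrane. ATP synthase lets the protons back through its rotating c-ring and makes ATP in its F1 head. The photoreceptors of the retina pack mitochondria into their inner segments and are among the heaviest users of oxygen in the body. Most subunits are encoded in the nucleus, and several of complex IV have a ubiquitous isoform beside one that is enriched in striated muscle, lung or testis.

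The DNA just before the start of 6 members is shown because the isoforms differ there. Each line gives the 250 bases before the RefSeq transcription start in build GRCm38.p6, written 5′ to 3′ on the gene's strand, with every CpG in capitals.
Cox6b1, chr7:30626115-30626364, minus strand: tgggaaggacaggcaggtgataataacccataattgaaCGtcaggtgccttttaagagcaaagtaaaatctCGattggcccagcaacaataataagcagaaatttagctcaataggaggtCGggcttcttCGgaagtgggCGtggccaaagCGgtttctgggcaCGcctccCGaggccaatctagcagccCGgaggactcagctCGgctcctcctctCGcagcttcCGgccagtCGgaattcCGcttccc
Atp5g2, chr15:102671048-102671297, minus strand: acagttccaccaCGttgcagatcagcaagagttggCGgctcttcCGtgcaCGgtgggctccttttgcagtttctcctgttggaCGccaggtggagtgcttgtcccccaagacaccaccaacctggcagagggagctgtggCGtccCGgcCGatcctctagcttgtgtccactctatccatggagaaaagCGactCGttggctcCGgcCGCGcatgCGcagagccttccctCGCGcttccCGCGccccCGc
Cox6a1, chr5:115348959-115349208, minus strand: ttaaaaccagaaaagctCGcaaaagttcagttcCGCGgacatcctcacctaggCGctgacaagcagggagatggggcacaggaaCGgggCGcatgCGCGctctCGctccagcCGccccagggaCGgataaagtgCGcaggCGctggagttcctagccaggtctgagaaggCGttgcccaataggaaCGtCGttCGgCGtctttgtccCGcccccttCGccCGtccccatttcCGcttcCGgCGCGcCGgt
Cox8a, chr19:7217617-7217866, minus strand: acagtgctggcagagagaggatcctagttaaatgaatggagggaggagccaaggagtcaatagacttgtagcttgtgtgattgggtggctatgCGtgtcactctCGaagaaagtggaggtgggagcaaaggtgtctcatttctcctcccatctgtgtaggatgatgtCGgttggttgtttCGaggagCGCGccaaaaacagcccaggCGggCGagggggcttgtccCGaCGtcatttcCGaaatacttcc
Cox8b, chr7:140900447-140900696, minus strand: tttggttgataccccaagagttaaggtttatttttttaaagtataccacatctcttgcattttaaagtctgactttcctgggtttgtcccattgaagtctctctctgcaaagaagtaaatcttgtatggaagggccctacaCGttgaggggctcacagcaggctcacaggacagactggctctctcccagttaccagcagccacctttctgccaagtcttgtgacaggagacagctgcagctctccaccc
Cox7a1, chr7:30183921-30184170, plus strand: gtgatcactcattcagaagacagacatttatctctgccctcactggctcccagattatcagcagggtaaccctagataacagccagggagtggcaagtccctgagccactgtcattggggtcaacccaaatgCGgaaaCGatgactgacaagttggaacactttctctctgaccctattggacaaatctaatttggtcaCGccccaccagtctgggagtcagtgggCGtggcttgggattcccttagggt
The ubiquitous isoform genes Cox6b1, Cox6a1 and Cox8a and the c-ring gene Atp5g2 held 14, 26, 11 and 19 CpGs in these 250 bases. The muscle isoform genes Cox8b and Cox7a1 held 1 and 4. Of the CpGs printed, 5 of Cox6b1, 5 of Atp5g2 and 1 of Cox6a1 were read in all 16 methylation libraries, and none of those of the other 3 genes was.

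RefSeq promoters, 250 bases before to 50 after the start, were on hand for 38 of the 49 members and held 2 to 43 CpGs with a median of 19.5, against 0 to 65 with a median of 7 in 27025 promoters of all genes. The start of this promoter was the gene start used for methylation in 31 of the 38, among them the 6 printed. It lay 32 to 11569 bases away in the other 7 (Cox5a, Cox7a2, Atp5d, Atp5g1, Atp5g3, Atp5j and Atp5s). The NRF1 motif CGCATGCGC, searched on both strands, was in 6 of the 38 (15.8%) and in 1.81% of all promoters. The ETS motif CCGGAAG was in 12 (31.6%) against 9.12%, and the YY1 motif AAGATGGCG in 3 (7.89%) against 1.49%. NRF1 and the ETS factor GABP are regulators of nuclear genes for mitochondrial proteins. These are matches of letters in a window and were not tested as binding sites. The members had passed the FPKM filter, while the 27025 promoters were not filtered by expression and held fewer CpGs at the median. The NRF1 letters stand in the stretches printed for Atp5g2 and Cox6a1, and the ETS letters, on the opposite strand, in those of Cox6b1 and Cox6a1.

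In each complex the member with the highest mean FPKM was a small accessory or membrane subunit. FPKM is scaled by transcript length, but differences in GC content between transcripts remain in it. The transcripts of Uqcrb, Cox6c and Atp5k have 535, 738 and 371 bases, and those of Uqcrc1 and Uqcrc2 have 1653 and 1896. The part of transcript length and GC content in the order of the genes was not tested. In complex III, Uqcrb averaged 451 FPKM over the 16 libraries, the core subunits Uqcrc1 and Uqcrc2 averaged 98.8 and 51.9, and the Rieske iron-sulfur subunit Uqcrfs1 averaged 18.6. In complex IV, Cox6c averaged 750 FPKM, Cox8a 498 and Cox6a1 438, while the assembly factors lay between 3.34 (Cox18, which inserts part of a core subunit into the membrane) and 121 (Cox17, a copper chaperone). In ATP synthase, the membrane subunit Atp5k averaged 492 FPKM, the catalytic subunit Atp5b 440 and the c-ring genes Atp5g1, Atp5g3 and Atp5g2 120, 68.6 and 37.6. Apart from Cox6a2, each member was at 1 FPKM or more in all 16 libraries.

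The ubiquitous isoform was the higher of each pair in every library, as the plot of isoforms and tissue markers shows. Cox8a ranged from 333 to 807 FPKM and its muscle isoform Cox8b from 22.4 to 370. Cox8b was uneven: it was highest in the ground control library M31 (370), then in the spaceflight libraries M23 (189) and M22 (169) and the ground control library M32 (129), and lowest in the spaceflight library M25 (22.4). The ground median of Cox8b was 59.9 FPKM and the spaceflight median 70.8, and limma gave a log2 change of -0.20 (SE 0.45, adjusted p = 0.878).

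Cox7a2 ranged from 65.8 to 156 FPKM and its muscle isoform Cox7a1 from 13.8 to 42.5. Cox6a1 ranged from 336 to 631, while the muscle isoform Cox6a2 was at 7.76 in M22, 6.37 in M33 and 5.87 in M31, at 2.203 or lower in the other 13 libraries, and listed at 0 in M35. Cox4i1 ranged from 188 to 333 FPKM and the lung isoform Cox4i2 from 10.6 to 22.1, and Cox6b1 from 135 to 377 against 12.2 to 39.7 for Cox6b2, known as the testis isoform. The level of Cox7b averaged 73.5 FPKM and that of its testis isoform Cox7b2 0.102, and Cox8c was listed at 0 in all libraries.

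**Figure D1:**
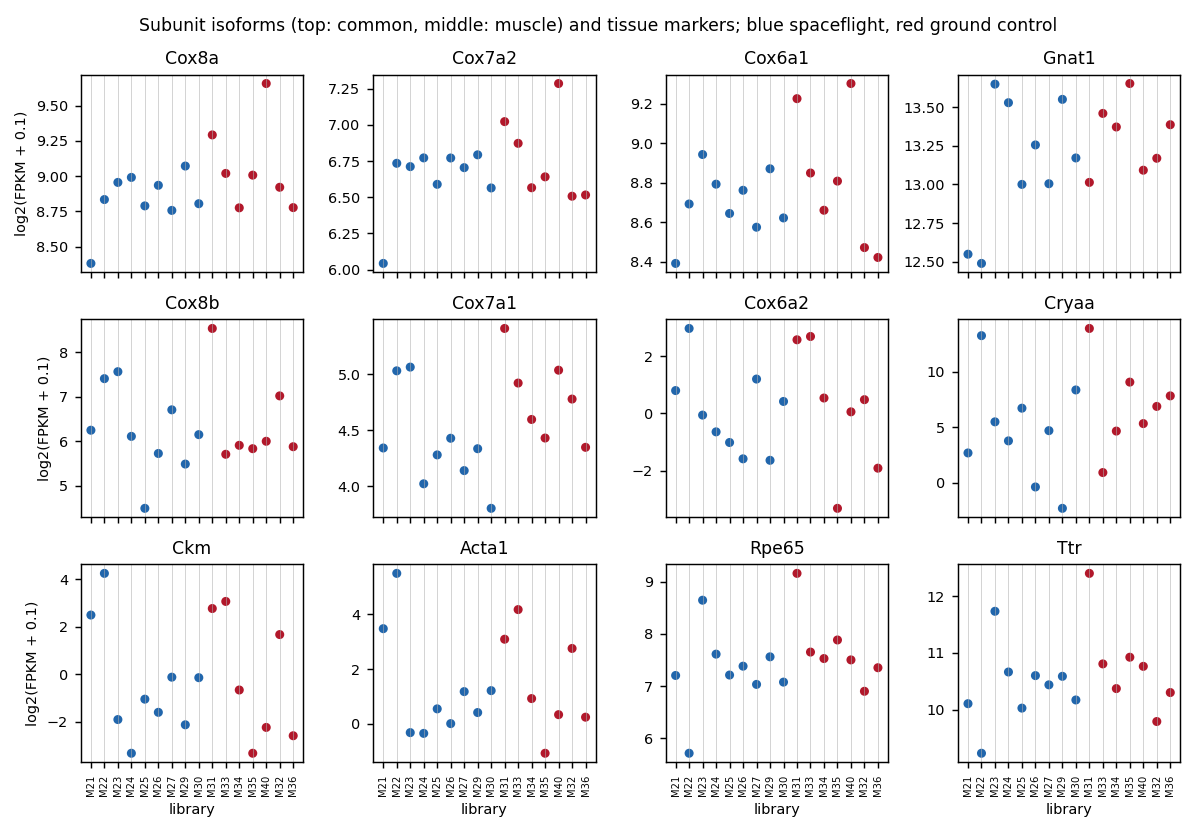
Each dot is 1 library of the spaceflight or ground control group, and the vertical axis is log2(FPKM + 0.1), with its own range in each panel. Cox8b is highest in M31, M23 and M22, the lens gene Cryaa in M31 and M22, the muscle genes Ckm and Acta1 in M22, and Rpe65 and Ttr in M31 and M23.

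The tissue label held: Gnat1, the rod transducin alpha subunit, averaged 9315 ± 2560 FPKM in the spaceflight libraries (SD, n = 9) and 10240 ± 1613 FPKM on the ground (SD, n = 7). Markers of tissue next to the retina were uneven in both groups. The summed level of 5 skeletal muscle genes (Acta1, Ckm, Mb, Myh4 and Tnnt3) ran from 1.06 to 152 FPKM over spaceflight libraries, highest in M22 and M21, and from 0.374 to 70.2 over ground controls, highest in M33 and M31. The 5 pigment epithelium genes summed to 794 to 4276 and 1239 to 6551 FPKM, and of these Rpe65 was highest in M31 (572) and M23 (400). The 5 lens genes summed to 0.690 to 27236 and 4.97 to 40403, highest in M22 and M31, and the 7 epithelial keratins to 9.70 to 1884 and 12.8 to 84.0, highest in M21 and M22. None of these 4 lists held a gene past a fold of 1.2 at an unadjusted p of 0.05 by limma, nor did the lists of cone, bipolar, amacrine and ganglion cell genes. The log2 change was below 0 for all 5 lens genes (median -1.89), all 5 muscle genes (-0.21) and all 4 pigment epithelium genes tested (-0.34), and above 0 for all 7 keratins (1.07). The part of these tissues in the levels of Cox8b, Cox7a1 and Cox6a2 was not tested. In bulk tissue, fewer cells of a type and less RNA per cell cannot be told apart.

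The summed FPKM of the 49 members was 5868, 7513 and 8428 (lowest, median, highest) over the spaceflight libraries and 6375, 8160 and 10592 over the ground controls. M31 and M40 were above all other libraries, M21 was below all others, and the groups overlapped. The means were 7356 ± 790 (SD, n = 9) and 8216 ± 1652 (SD, n = 7), a difference of -10.5%, which is smaller than the SD of the ground controls. Small nucleolar, small nuclear and other short structured RNAs took 36.9 to 65.4% of the FPKM total of a library after spaceflight. They took 51.1 to 67.6% of it in ground controls, and how this share bears on the other FPKM values was not tested. With the libraries rescaled without those RNAs, the sum of the members differed by 2.21%, in the other direction. On that scale 18.3% of 15192 genes were higher at a fold of 1.2 and an unadjusted p of 0.05, and 0.25% were lower.

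**Figure D2:**
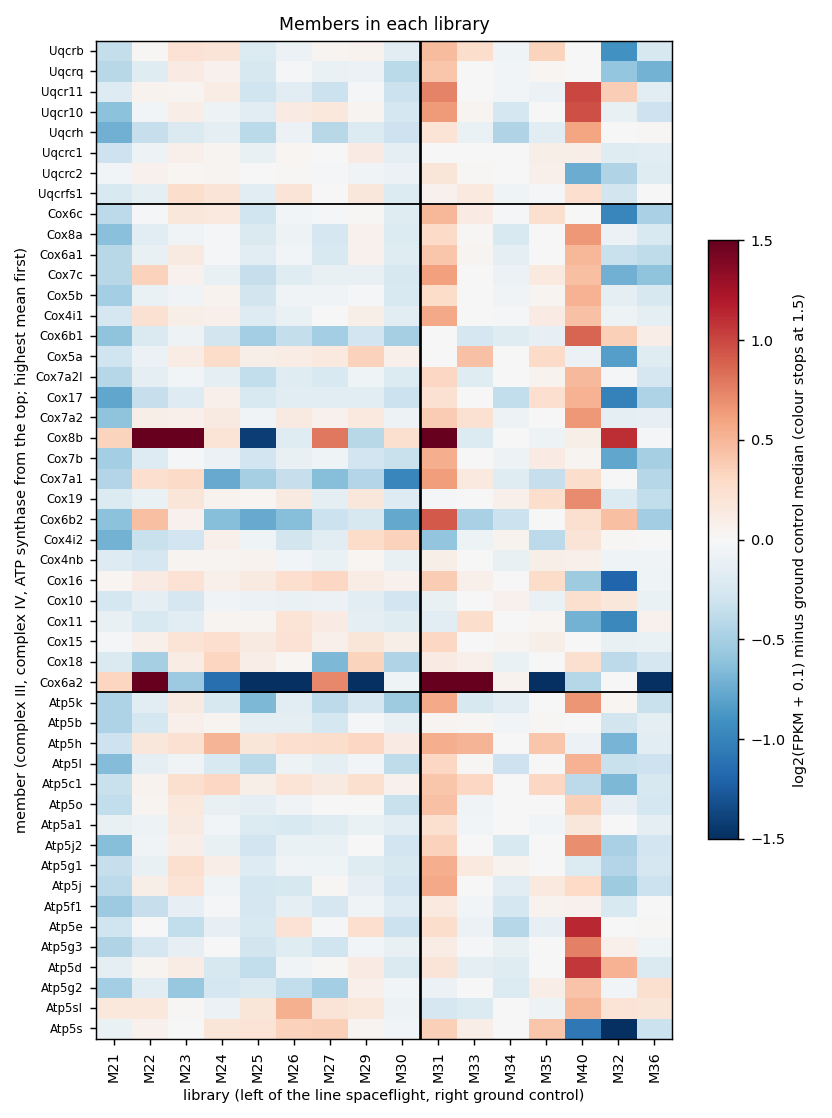
Each row is a member and each column a library, and the colour is log2(FPKM + 0.1) minus the ground control median, with the colour scale ending at 1.5 in either direction. M31 is higher over most members, M40 and M32 are high for some members and low for others, and M21 is lower over most.

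After spaceflight the members leaned lower, and no member passed the study's thresholds (a fold of 1.2 or more, p of 0.05 or less and adjusted p of 0.3 or less) by limma on log2(FPKM + 0.1). Of the 49, 39 had a log2 change below 0, with a median of -0.12 against 0.00 over all 14306 genes. The medians of the Muller glia and pigment epithelium lists were further from 0, at -0.29 and -0.34, and their part in the members' change was not tested. Protein-coding genes that are not members were split into 4 equal bins by transcript length. Their median log2 change was -0.05 in the shortest bin (216 to 2051 bases) and 0.02 in the longest. The median log2 deviation of the shortest bin was highest in M40 (0.18) and M31 (0.13). Most members have transcripts in that range of length, and the part of length in their change was not tested. At a fold of 1.2 and an unadjusted p of 0.05, 7 members were lower (14.3%) and 0 were higher, where 2.93% of all genes were lower and 4.38% were higher. At the study's thresholds 14 genes in all were lower (0.0979%) and 7 were higher (0.0489%), and the lowest adjusted p of a member was 0.361. The levels of the 2 groups overlapped for all 49 members. Of all genes, 0.035% had every spaceflight library below every ground control library and 0.0489% had every one above.

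**Figure D3:**
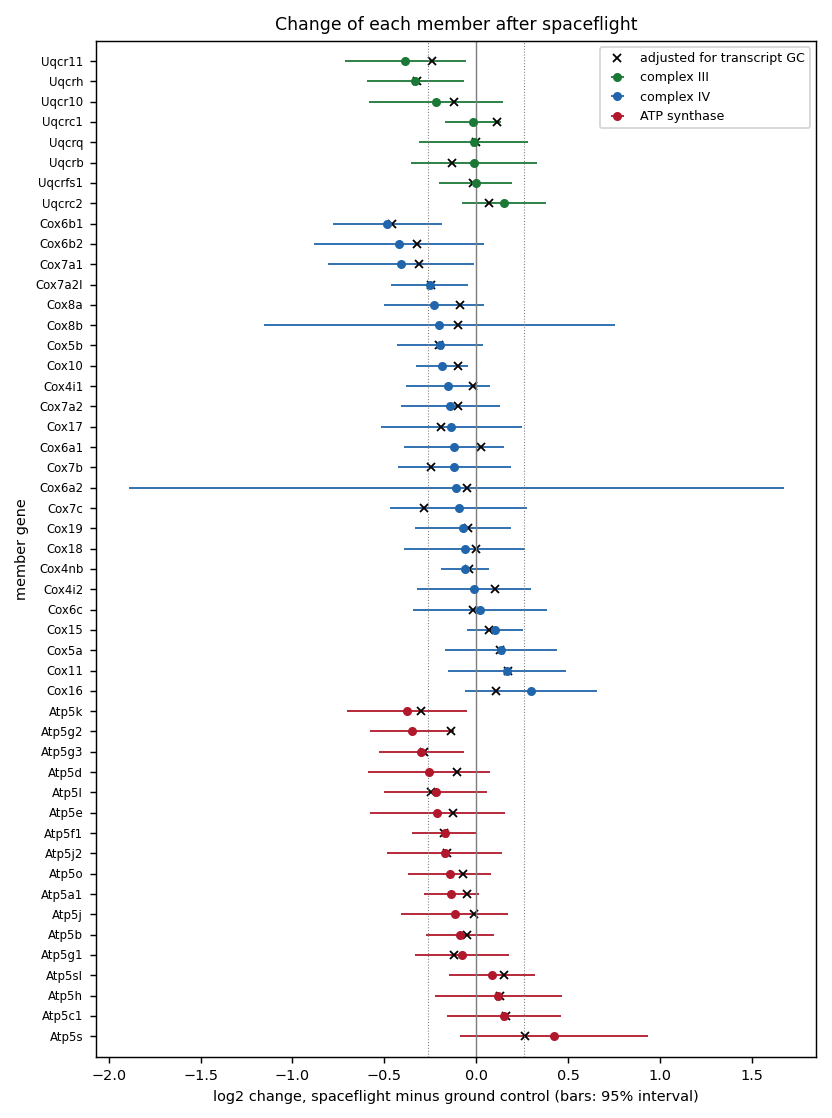
Points are the limma log2 change of each member, spaceflight minus ground control, with 95% confidence intervals, grouped by complex, crosses are the change after adjustment for transcript GC content, and dotted lines mark a fold of 1.2. In complex IV Cox6b1 lies lowest at -0.48, and most points lie to the left of 0.

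Cox6b1, chr7:30616971-30626114 on the minus strand, encodes the subunit that lies on the intermembrane side of complex IV. Its levels were 135, 161 and 194 FPKM (lowest, median, highest) in the 9 spaceflight libraries and 172, 205 and 377 in the 7 ground controls. All 9 spaceflight libraries were below the ground median, and 4 ground control libraries, M40 (377), M32 (264), M36 (220) and M31 (205), were above all spaceflight libraries. The log2 change of Cox6b1 was -0.48 (SE 0.14, limma adjusted p = 0.361), a fold of 0.715. It had the lowest p of the 49 members. Without M32 and M40 the log2 change was -0.28 (SE 0.09, limma adjusted p = 0.914), and with M31 left out as well it was -0.26, under the fold of 1.2. With M21 counted among the ground controls the log2 change was -0.37 (limma adjusted p = 0.675).

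In complex III 2 of 8 members, both small subunits, were lower at a fold of 1.2 and an unadjusted p of 0.05, where 2.93% of all genes were. In that complex 7 members had a log2 change below 0 and the median was -0.02. Uqcrh, the hinge protein that sits beside cytochrome c1 (chr4:116066965-116075070, minus strand), was at 91.8, 122 and 142 FPKM after spaceflight and at 111, 151 and 227 in ground controls. All 9 spaceflight libraries lay below its ground median, and 4 ground controls lay above all of them. Its log2 change was -0.33 (SE 0.12, limma adjusted p = 0.395). Uqcr11 (chr10:80402997-80406821, minus strand) was at 128, 143 and 172 FPKM after spaceflight and at 142, 160 and 319 in ground controls. Here 3 ground controls, M40 (319), M31 (268) and M32 (207), stood above all spaceflight libraries, and the other 4 fell within their range. The log2 change of Uqcr11 was -0.39 (SE 0.16, limma adjusted p = 0.409), and without M32 and M40 it was -0.22.

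The other 6 members of complex III did not pass the test. Uqcrb (chr13:66900576-66905350, minus strand) had the highest mean FPKM of the complex. It was at 349, 456 and 519 FPKM after spaceflight and at 240, 449 and 625.3 in ground controls. Its log2 change was -0.01 (95% interval -0.36 to 0.33). The ground controls lay on both sides of the spaceflight range. Uqcrc1, a core protein, changed by -0.02 (95% interval -0.17 to 0.13), and Uqcrfs1, the Rieske subunit, by -0.0033 (95% interval -0.20 to 0.20). Uqcrc2, the other core protein, was at 50.7 to 56.6 FPKM after spaceflight and at 32.2 (M40) to 61.3 (M31) in ground controls, with a log2 change of 0.15 (SE 0.11, limma adjusted p = 0.601). Of the small subunits left, Uqcr10 changed by -0.22 (95% interval -0.58 to 0.15), with M40 (279.5 FPKM) and M31 (223) above all spaceflight libraries, and Uqcrq by -0.01 (95% interval -0.31 to 0.28).

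In complex IV, Cox6b1 and the muscle isoform Cox7a1 were lower at a fold of 1.2 and an unadjusted p of 0.05. They are 8.33% of its members, where 2.93% of all genes were lower. A log2 change below 0 was seen in 19 of 24 members, with a median of -0.12. Cox7a1 (chr7:30184171-30186030, plus strand) was at 13.8, 20.1 and 33.4 FPKM after spaceflight and at 20.2, 27.3 and 42.5 in ground controls. The highest libraries were M31 in ground controls and M23 and M22 after spaceflight. Its log2 change was -0.41 (SE 0.19, limma adjusted p = 0.457), and in 11 of the 16 fits that left out 1 library it missed the threshold.

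Cox7a2l, listed above as a supercomplex factor, was at 107, 128 and 141 FPKM after spaceflight and at 121, 145 and 203 in ground controls. All 9 spaceflight libraries were below the ground median and 5 ground controls were above all spaceflight libraries. Its log2 change of -0.25 (SE 0.10, limma adjusted p = 0.407) fell short of a fold of 1.2. Cox10, which takes an early step towards the heme A of the catalytic core, was at 10.1, 11.2 and 11.8 FPKM against 11.4, 12.3 and 14.6. Again all 9 spaceflight libraries were below the ground median, a pattern whose share over all genes was not counted. Its log2 change was -0.18 (SE 0.07, limma adjusted p = 0.395), also short of the fold.

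The ubiquitous isoforms other than Cox6b1 did not pass the test, and for Cox7b too all 9 spaceflight libraries lay below the ground median (80.4 FPKM). Cox8a had a log2 change of -0.23 (95% interval -0.50 to 0.04), Cox4i1 one of -0.15 (-0.38 to 0.08), Cox7a2 one of -0.14 (-0.41 to 0.13), Cox6a1 one of -0.12 (-0.39 to 0.15) and Cox7b one of -0.12 (-0.43 to 0.19). Among the tissue isoforms, Cox6b2 had a log2 change of -0.42 (SE 0.22, limma adjusted p = 0.497), Cox6a2 one of -0.11 (SE 0.84, adjusted p = 0.968) and Cox4i2 one of -0.01 (SE 0.15, adjusted p = 0.979). Cox6c (chr15:35931976-35938246, minus strand) had the highest mean FPKM of all members. It was at 587, 761 and 871 FPKM after spaceflight and at 392, 772 and 1088 in ground controls. The log2 change of Cox6c was 0.02 (95% interval -0.34 to 0.39). Its ground controls spanned the whole spaceflight range, with M32 lowest and M31 highest. On the higher side, the assembly factor Cox16 was at 13.8 to 16.7 FPKM after spaceflight and at 5.84 (M32) to 17.6 (M31) in ground controls, with a log2 change of 0.30 (SE 0.17, limma adjusted p = 0.525).

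The subunits of complex IV with a single gene lay on both sides of 0. Cox5b, which binds zinc, was at 223, 305 and 329 FPKM after spaceflight and at 269, 317 and 456 in ground controls, with a log2 change of -0.20 (95% interval -0.43 to 0.04), and Cox7c changed by -0.10 (95% interval -0.47 to 0.28). Cox5a was at 121, 160 and 189 FPKM against 83.8, 149 and 202, with a log2 change of 0.14 (95% interval -0.17 to 0.44). Among the assembly factors, Cox17 changed by -0.14, Cox19, another copper-pathway protein, by -0.07 and Cox18 by -0.06, while Cox11, a copper chaperone, changed by 0.17 and Cox15, which acts after Cox10 in making heme A, by 0.10. The 95% interval of each of these 5 included 0. Cox4nb, which is not a subunit, changed by -0.06 (95% interval -0.19 to 0.07).

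In ATP synthase 3 of 17 members were lower at a fold of 1.2 and an unadjusted p of 0.05, where 2.93% of all genes were. Of the 17, 13 had a log2 change below 0 and the median was -0.14. Of the 3 genes for the c-ring, which make the same mature protein, Atp5g2 and Atp5g3 were among the 3 lower members. Atp5g2 (chr15:102662868-102671047, minus strand) was at 27.2, 33.7 and 42.6 FPKM after spaceflight and at 35.2, 40.5 and 54.5 in ground controls, with 3 ground controls above all spaceflight libraries and 8 of 9 spaceflight libraries below the ground median. Its log2 change was -0.35 (SE 0.11, limma adjusted p = 0.369). Atp5g3 (chr2:73908447-73912464, minus strand) was at 51.2, 62.0 and 70.2 FPKM against 65.2, 70.3 and 119. All 9 spaceflight libraries lay below its ground median, and M40 was far above the other ground controls. The log2 change of Atp5g3 was -0.30 (SE 0.11, limma adjusted p = 0.395), and that of Atp5g1 was -0.08 (SE 0.12, adjusted p = 0.824).

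Atp5k, a small subunit of the membrane part (chr5:108433246-108434399, minus strand), was at 329, 440 and 578 FPKM after spaceflight and at 416, 525 and 829.2 in ground controls. The ground controls M40 (829.2) and M31 (777) were above all spaceflight libraries, and the others fell inside the spaceflight range. Its log2 change was -0.38 (SE 0.15, limma adjusted p = 0.417). The F1 subunits Atp5a1 and Atp5b, which hold the nucleotide sites, had log2 changes of -0.13 (95% interval -0.28 to 0.02) and -0.09 (95% interval -0.27 to 0.10), and Atp5c1, the rotating shaft, one of 0.15 (95% interval -0.16 to 0.46). Atp5s, not a subunit, had the highest log2 change of the 49, 0.42 (SE 0.24, limma adjusted p = 0.525), with 1.95 FPKM in M32 and 2.91 in M40 against 4.98 to 8.36 in the other ground controls and 5.82 to 8.02 after spaceflight.

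The peripheral stalk, which holds the F1 head still, and the rest of F1 did not pass the test. Atp5f1 was at 58.8, 75.4 and 85.0 FPKM after spaceflight and at 71.5, 86.0 and 94.9 in ground controls, with all 9 spaceflight libraries below the ground median and a log2 change of -0.17 (95% interval -0.35 to 0.00). Atp5o changed by -0.14, Atp5j by -0.12 and Atp5h by 0.12, each with an interval that included 0. The small F1 subunits Atp5d and Atp5e changed by -0.26 (95% interval -0.59 to 0.07) and -0.21 (95% interval -0.58 to 0.16), and for both M40 was highest, at 82.8 and 149 FPKM. In the membrane part, Atp5l changed by -0.22 (95% interval -0.50 to 0.06), with all 9 spaceflight libraries below the ground median of 267 FPKM, and Atp5j2 changed by -0.17 (95% interval -0.48 to 0.14).

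**Figure D4:**
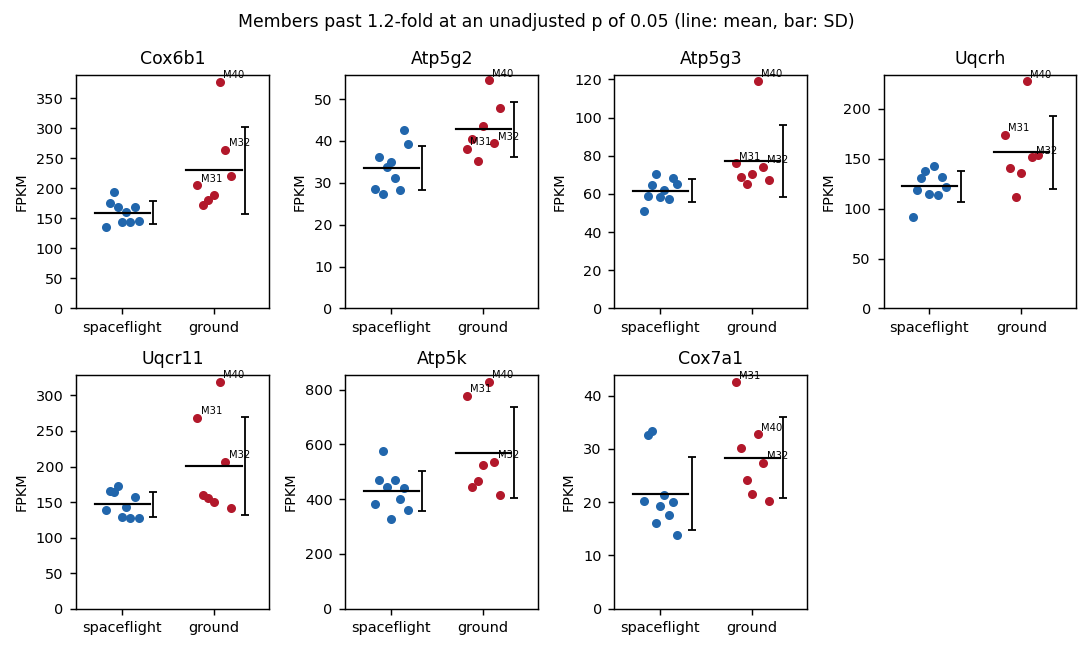
FPKM of the 7 members lower at a fold of 1.2 and an unadjusted p of 0.05, with 1 dot a library with a line at the mean of each group and a bar of 1 SD. The groups overlap for each gene, and the ground control library M40 is the highest dot in 6 of the 7, with M31 highest for Cox7a1.

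Fewer members passed the unadjusted threshold without some ground control libraries and after adjustment for GC content, and the share of all genes that passed fell too. Among protein-coding genes that are not members, M40 and M32 ran low for genes of low transcript GC content and high for genes of high GC content: with those genes split into 4 equal bins by GC content, the median log2 deviation of the lowest bin was -0.28 in M40 and -0.38 in M32, and that of the highest bin was 0.44 and 0.26, while in the other 14 libraries these medians lay between -0.09 and 0.14. From the lowest bin to the highest, the median log2 change of these genes after spaceflight was 0.12, 0.03, -0.06 and -0.13. The members followed the same order. Their median log2 change was 0.07 for the 6 in the lowest bin, then -0.04 for 16, -0.14 for 14 and -0.22 for the 13 in the highest. After a loess adjustment for transcript GC content in each library, Cox6b1 (-0.46, SE 0.13, adjusted p = 0.464), Uqcrh (-0.32), Atp5k (-0.30) and Atp5g3 (-0.28) were lower at a fold of 1.2 and an unadjusted p of 0.05. These 4 are 8.16% of the members, where 1.63% of 13685 genes were lower, and 37 of the 49 still had a log2 change below 0. Atp5g2 then had a log2 change of -0.14 (adjusted p = 0.760), past neither limit, and the median of the members was -0.09.

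Without M32 and M40, Cox6b1 and Atp5g2 (-0.30) were the 2 members lower at the unadjusted threshold, where 0.818% of all genes were. The count was also 2 without M40 alone, where 1.33% of all genes were lower, and 1 without M31, M32 and M40, where 1.06% were. Without M31, the count that passed all of the study's thresholds was 5 of 49: Cox6b1, Atp5g2, Atp5g3 and Uqcrh lower and Cox16 higher, where 9.57% of all genes passed in either direction. Without M33 it was 3 (Cox6b1, Atp5g2 and Cox7a2l lower), where 3.54% of all genes passed, and without M35 it was 2 (Cox6b1 and Atp5g2 lower), where 3.78% did. With M21 counted among the ground controls, Cox6b1 was the 1 member lower at the unadjusted threshold, where 1.73% of all genes were, and the median over the members was -0.03. With the libraries rescaled without short structured RNAs, the median over all genes moved to 0.18 and that over the members to 0.05. Against that shifted scale Cox6b1 was lower (-0.31, adjusted p = 0.246), where 0.25% of 15192 genes were, and Atp5c1, Atp5s, Cox15, Cox16, Cox5a and Uqcrc2 were higher, where 18.3% of genes were.

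Other genes of the same pathway were read with the same test. None of 12 symbols searched for the mitochondrially encoded subunits of these complexes matched a row of the table. At a fold of 1.2 and an unadjusted p of 0.05, 2.93% of all genes were lower and 4.38% higher. Of 42 complex I genes tested, 8 were lower (19.0%) and 0 higher at that threshold, with a median log2 change of -0.08. Of 4 complex II genes 0 were lower or higher. Of 9 complex IV partners 1 was lower. It was Ndufa4, once assigned to complex I and now known as a complex IV subunit, at 218 ± 45.6 FPKM in spaceflight mice (SD, n = 9) and 308 ± 115 FPKM on the ground (SD, n = 7), with a log2 change of -0.46 (SE 0.18, limma adjusted p = 0.395). This gene is counted in the complex I list too. None of the 4 complex III partners, the 6 ATP synthase partners or Cycs (cytochrome c) was lower or higher at that threshold.

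Of 8 regulators of mitochondrial gene expression, Esrra, a nuclear receptor, was lower (log2 change -0.32, SE 0.14, limma adjusted p = 0.452) and Tfb1m, which methylates the mitochondrial small ribosomal RNA, was higher (0.44, SE 0.16, limma adjusted p = 0.386), both at a fold of 1.2 and an unadjusted p of 0.05. As 2 other classes of short, abundant mRNAs, 9 of 91 cytosolic ribosomal protein genes were lower (9.89%) and 1 higher, with a median of -0.11. Of 75 mitochondrial ribosomal protein genes 6 were lower (8%) and 1 higher, with a median of -0.07. The shares of all genes were 2.93% lower and 4.38% higher. In the rod list 1 of 9 genes was lower, Gngt1 (-0.38, limma adjusted p = 0.449), and in the Muller glia list 1 of 4, Glul (-0.27, limma adjusted p = 0.409), with all 4 genes of that list below 0.

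Methylation at the starts of the members was low, and no member passed the test of a difference between the groups. Each promoter was taken as 1000 bp to either side of the start, with the CpGs read at least 10 times in all 16 RRBS libraries, and 42 of the 49 members had such CpGs. Their median methylation was 0.40% against 1.48% over 21020 promoters, and 37 of 42 (88.1%) lay under 5%, against 59.8% of all promoters. The members had passed the FPKM filter, while the 21020 promoters were not filtered by expression, so the 2 sets are unlike. By logistic regression with overdispersion, 0 members differed at an adjusted p of 0.05 and 10 percentage points, where 0.0% of all promoters did. At an unadjusted p of 0.05 there were 5, where 5.3% of all promoters were, and the lowest adjusted p was 0.853. These were Uqcrfs1 (0.21 points higher after spaceflight), Atp5h (0.17 points higher), Atp5b (0.22 points lower, -0.22), Cox17 (-2.07 points) and Cox16 (-2.11 points). These values pool the reads of a promoter, so that CpGs with more reads weigh more. With each CpG weighted alike, the mean over the 23 CpGs of Cox17 was 7.99% ± 0.243 after spaceflight (SD, n = 8) and 7.98% ± 0.244 on the ground (SD, n = 8). The 2 CpGs of Cox17 that were methylated above 50% took 8.51% of its reads after spaceflight and 11.1% on the ground. Over the 14 CpGs of Cox16 the equal-weight means were 5.46% ± 0.872 (SD, n = 8) and 5.97% ± 1.03 (SD, n = 8), a difference of -0.51 points. The differences of Uqcrfs1, Atp5h and Atp5b were then 0.25, 0.16 and -0.20 points.

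The Cox6b1 promoter, whose upstream sequence is printed above, had 13 CpGs in common, covered by 805 to 1622 reads a library. Its methylation averaged 0.251% ± 0.171 in spaceflight mice (SD, n = 8) and 0.293% ± 0.141 on the ground (SD, n = 8), and the ranges, 0.0779 to 0.526% and 0.0899 to 0.497%, overlapped almost wholly. For Atp5g2, with 26 CpGs, the values were 0.331% ± 0.162 (SD, n = 8) and 0.206% ± 0.151 (SD, n = 8). Neither start rose above 0.53% in any library.

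The isoforms differed from each other in methylation in both groups. Cox6a2, the muscle isoform of low expression, was methylated over 9 CpGs at 83.7% ± 1.27 in spaceflight mice (SD, n = 8) and at 84.5% ± 1.95 on the ground (SD, n = 8), while its ubiquitous counterpart Cox6a1 was at 0.395% and 0.439% over 38 CpGs. Cox4i2, the lung isoform, was at 10.9% ± 2.45 (SD, n = 8) and 11.9% ± 2.71 (SD, n = 8), and Cox4i1 at 2.96% and 2.99%. The CpGs of Cox4i1 are largely those of Cox4nb, whose start lies beside it on the opposite strand, so these promoters are not separate readings. Cox6b2, known from testis, was at 2.84% and 2.57%. The highest member was the assembly factor Cox19, at 87.3% and 87.0%, over 2 CpGs only. Both lie upstream of its start, at chr5:139345898 and 139345970, with the start at 139345166 on the minus strand. None of the 22 CpGs of its RefSeq promoter was read in all 16 libraries. The 9 CpGs of Cox6a2 all lie inside the gene, at chr7:128205675 to 128206267, with the start at 128206366 on the minus strand. Cox8b, Cox7a1, Cox7a2, Cox7b, Uqcr10, Uqcrb and Atp5g3 had no CpG read in all 16 libraries within their windows.

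**Figure D5:**
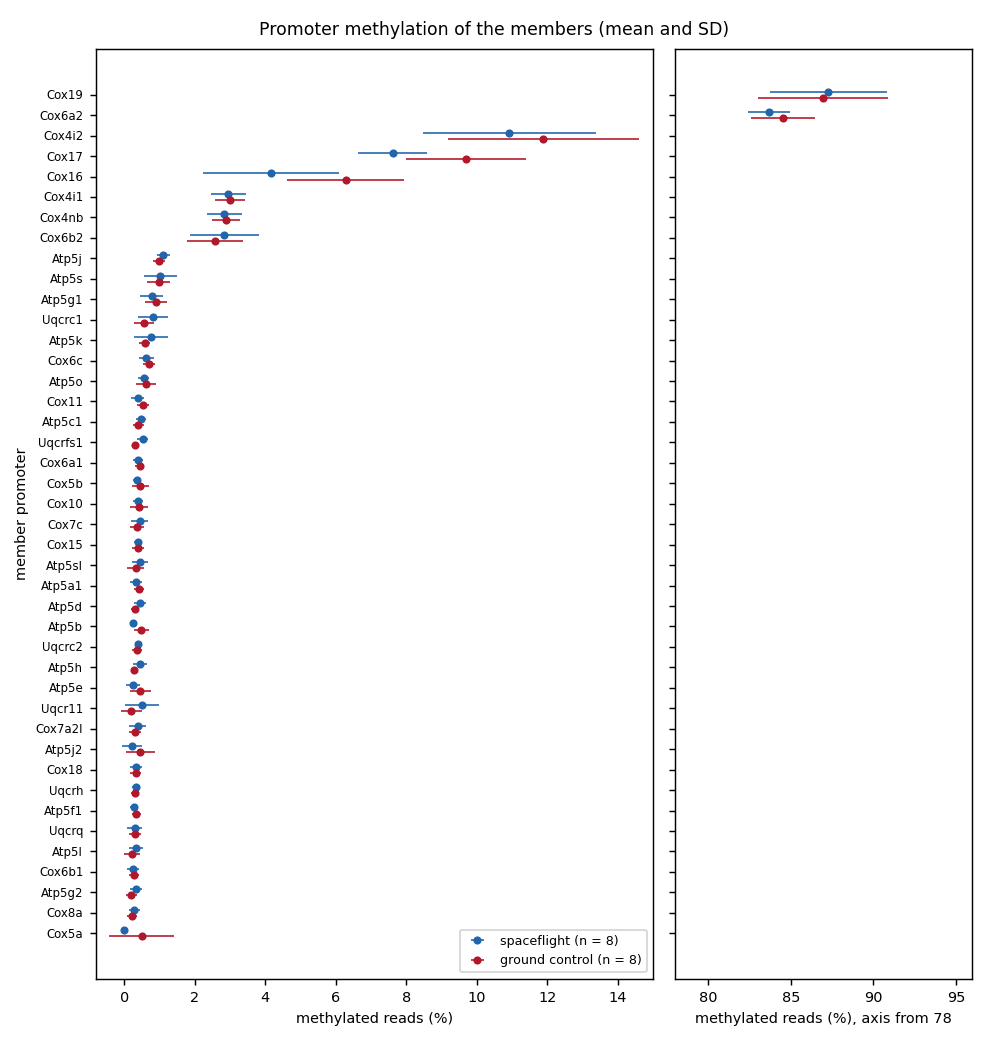
Mean promoter methylation in percent, with SD bars over 8 spaceflight and 8 ground control libraries, for the 42 members with shared CpGs, in 2 panels with different axes. Cox19 and Cox6a2 lie above 80% in both groups, Cox4i2 near 11%, and most others under 1%, with the bars of the groups overlapping. The CpGs read for Cox19 lie upstream of its RefSeq promoter, and those read for Cox6a2 lie inside the gene.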

How the data were processed

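RNA was measured in 9 spaceflight and 7 ground control retinas and CpG methylation by RRBS in 8 retinas of each group, with mice as replicates. Expression was deposited as FPKM per gene, which the authors made with TopHat2 and Cuffdiff on GRCm38, and 2 sample columns of that table that no label here names were not used. Per the file headers, each methylation file held counts of reads (coverage) and the percent of methylated reads per CpG, which the authors made with Trim Galore 0.4.5 and Bismark on GRCm38. FPKM keep no absolute depth. From the steps of low values, 1 read was worth 0.782 (M36) to 1.28 (M40) times its worth in M27, so M40 was the shallowest by that measure. The M40 value rested on the fewest genes at the main step, 50 against 74 (M31) to 204 (M26) in the others set against M27. RRBS reads at shared CpGs numbered 51678786 to 88507965 a library, and read counts give counting error only.

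limma 3.58.1 (R 4.3.3) was run with a mean trend on log2(FPKM + 0.1) over the 14306 genes averaging at least 1 FPKM, so folds of low genes are understated, and p was adjusted by Benjamini-Hochberg over all of them. Calls used the study's thresholds. The 24 entries without a gene name, which took up to 11.5% of FPKM, were left out. Each promoter (CpGs with 10 or more reads, strands added) was tested by logistic regression with overdispersion and an F-test, in Python 3.11.15 with scipy 1.17.1. Both fits were first tested on simulated data. Positions and sequences are from RefSeq GRCm38.p6. Transcript length and GC content are from the longest GENCODE transcript of each gene, a protein-coding one where there was one. Small RNA shares used 798 symbols. Full values were given for Cox6b1, members past a fold of 1.2 and p of 0.05, and isoform pairs. They were also given for the member of highest mean FPKM and the 3 lowest p per complex. Members and lists were chosen with earlier results of these data known. Other pseudocounts, filters, scalings, labels, an eye term and leaving out each library were tried. One item of the marker lists is not reported here.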

Additional observations from a re-analysis of the deposited data

Results flagged for a closer look

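In 17 of 138 groups of member values tested, the highest or lowest library lay further from the rest than Dixon's 95% limit, and chance flags about 1 in 20 groups. In expression after spaceflight, M21 was lowest for Cox7a2 (65.8 FPKM, next 94.5) and Atp5c1 (166.7 FPKM, next 217), and M22 was highest for Cox6a2 (7.76 FPKM, next 2.203). M23 was highest for Atp5a1 (207 FPKM, next 184) and M26 for Atp5sl (10.9 FPKM, next 8.56). In ground controls, M31 was highest for the muscle isoform Cox8b (370 FPKM, next 129) and for Cox15 (6.19 FPKM, next 5.29). M40 was highest for the c-ring gene Atp5g3 (119 FPKM, next 76.1) and for Atp5e (149 FPKM, next 81.2).

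In promoter methylation, spaceflight RRBS library 3 stood apart at 4 starts: highest for Uqcr11 (1.66%), Atp5k (1.89%) and Cox10 (0.681%) and lowest for Cox4i1 (1.86%). That library also had the lowest methylation over all shared CpGs, 33.3%, where the others were at 35.5 to 42.3%. Spaceflight library 6 was highest for Cox6a2 (86.3%). In ground controls, library 4 was highest for Uqcr11 (0.870%), library 6 for Cox6a1 (0.707%) and library 3 for Cox6b2 (4.30%).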

How the results depend on the processing

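The counts moved with a few ground control libraries and with the scale. In the main fit 7 members were lower at a fold of 1.2 and an unadjusted p of 0.05, where 2.93% of all genes were. The count was 1 with M21 as ground control (1.73% of all genes) and 2 without M32 and M40 (0.818%). It was 1 without M31, M32 and M40 (1.06%) and 4 adjusted for GC content (1.63%). These last 3 settings were chosen after seeing the data. Rescaled without short structured RNAs, 1 was lower (0.25% of all genes) and 6 were higher (18.3%). The same 7 passed all of the study's thresholds on that scale. Leaving out 1 library gave 2 to 9 lower (2 without M40, where 1.33% of all genes were lower) and 0 to 2 higher. It gave 0 to 5 past all thresholds (5 without M31, 3 without M33 and 2 without M35, where 9.57, 3.54 and 3.78% of all genes passed). The median log2 change then ran from -0.19 to -0.07 and the difference in summed FPKM from -13.7 to -5.93%. Cox6b1 lay between -0.55 and -0.36 and Atp5g2 between -0.39 and -0.29. Pseudocounts of 1 and 0.01, other filters, median ratio scaling, no trend and an eye term gave 6 or 7 lower. The log2 changes that took the other sign were Cox6a2 0.30 with a pseudocount of 0.01, Uqcrb 0.16, Cox4i1 0.020, Cox4i2 0.16, Cox6a1 0.052, Cox6a2 0.11, Cox7a2 0.031, Cox7b 0.054 and Atp5g1 0.097 rescaled, Uqcrb 0.071, Cox4i2 0.13 and Cox7a2 0.023 with M21 as ground control, and Cox6c -0.0011 and Cox4i2 0.0024 with the eye term. They were also Uqcrc2 -0.023, Cox6c -0.14 and Cox4i2 0.076 without M32 and M40, Cox6c -0.034, Cox6a1 0.014, Cox6a2 0.55 and Cox8b 0.38 without M31, M32 and M40, and Cox6c -0.018, Cox4i2 0.10 and Cox6a1 0.027 adjusted for GC content. They were also Uqcrb 0.028, Cox4i2 0.059 without M21, Cox4i2 0.013 without M22, Cox6c -0.0097, Cox4i2 0.0076 without M23, Cox6c -0.0069 without M24, Uqcrb 0.0084, Cox6a2 0.024, Cox8b 0.013 without M25, Cox4i2 0.0054, Cox6a2 0.096 without M26, and Cox6a2 0.10 without M29. They were also Uqcrb 0.0022 without M30, Uqcrb 0.070, Cox6a2 0.29, Cox8b 0.15, Atp5g1 0.018 without M31, Uqcrb 0.034, Cox6a2 0.31 without M33, Cox4i2 0.014 without M34, Uqcrb 0.046 without M35, Cox4i2 0.038 without M40, Cox6c -0.13, Cox4i2 0.0096 without M32, and Cox6c -0.046, Cox4i2 0.0059 without M36. The cause was not tested. By the adjusted threshold, 0 member promoters differed with 20 or more reads, with 200 bp to either side or by the exact permutation test. Weighing each CpG alike, added after seeing the data, gave values with no test. No paired analysis was possible because the replicate numbers were given in accession order and each mouse belongs to 1 group.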
